A study of Mus musculus with 6 samples.

Results

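The data described here are the messenger RNA levels of 9 negative regulators of cytokine mRNA and of NF-κB signalling in mouse kidney tubule cells given extra HNF3α. The regulators were Zc3h12a, Zfp36, Zfp36l1, Rc3h1, N4bp1, Tnfaip3, Tnip1, Tnip3 and Irak3, found by gene name among the 29595 genes of the deposited table. They were chosen by their known role and with their difference between the groups in these same libraries already known. Their differences are therefore given as a description, without p-values, and where the text says that the fit over all genes called one of them, this describes the values that chose it and is no independent test. All 9 were in the table, and all 9 passed the filter on low counts that left 17824 genes.

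TKPTS, a line of mouse renal proximal tubule cells, was transfected with pcDNA3.1-Hnf3a-Flag (the Hnf3a group, 3 libraries) or with pcDNA3.1-Flag, the plasmid without the insert (the pcDNA group, 3 libraries). The labels give the genotype as HNF3alpha overexpression in the first group and WT in the second. RNA was taken after 24 h. Both groups thus carried a Flag plasmid, the labels name no further treatment, and the share of cells that took up a plasmid is not given in the sources used here. HNF3α is a transcription factor of the forkhead family, and its gene is Foxa1.

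Libraries held between 60473818 and 71154667 estimated counts. Foxa1 itself lay between 284.2 and 334.2 FPKM (fragments scaled by transcript length and by library depth) in the Hnf3a libraries and between 9.49 and 9.96 FPKM in the pcDNA libraries. Of 15 proximal tubule markers 10 were in the table, and 8 or 9 of them were above the floor of 12 counts in each library, which is taken as the worth of about 3 sequenced fragments. Floors cover counting error only. Most of the summed level of the proximal tubule markers was Pax8, at 27.5 to 31.4 FPKM, and Cdh16 came next at 2.32 to 2.82 FPKM. Lrp2, at 0.0138 to 0.0426 FPKM, and Cubn, at 0.0258 to 0.0534 FPKM, were low in every library though above the floor. Slc5a2 was at 0 to 3 counts, while all 5 epithelial markers were above the floor in every library. Hnf3a replicates 2 and 3 stood apart in the markers of other cell types. All 8 fibroblast markers were above the floor there, with a summed level of 8.04 and 9.96 FPKM, against 3 of 8 and 0.193 FPKM in Hnf3a replicate 1 and at most 2 of 8 and 0.142 FPKM in the pcDNA libraries. Hnf3a replicates 2 and 3 also had all 14 macrophage markers above the floor, against 4 in Hnf3a replicate 1 and 4 to 6 in the pcDNA libraries. Their summed level, most of it Cd14 and Cd68, was 35.2 to 43.0 FPKM in the Hnf3a group and 48.6 to 51.9 FPKM in the pcDNA group. Among macrophage markers, C1qa and Tyrobp were at 0 counts in Hnf3a replicate 1 and in all pcDNA libraries. For this reason values are also given without single libraries and for Hnf3a replicate 1 alone against the pcDNA group.

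The inflammatory response carries its own brakes. Receptors for Toll-like ligands, IL-1 and TNF activate NF-κB, which switches on cytokine genes and, with them, genes for proteins that end the response. Some of these proteins destroy cytokine mRNA. Regnase-1 (Zc3h12a) is an endoribonuclease that cuts stem-loops in such transcripts, roquin-1 (Rc3h1) binds similar stem-loops and recruits the deadenylase, and TTP (Zfp36) and its relative Zfp36l1 bind AU-rich elements. Others act on the signalling proteins. A20 (Tnfaip3) edits ubiquitin chains, Tnip1 and Tnip3 (ABIN-1 and ABIN-3) bind A20 and ubiquitin, N4bp1 restrains NF-κB signalling and carries a nuclease-like domain, and IRAK-M (Irak3) is a kinase relative that holds back IL-1 and Toll-like receptor signalling.

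Promoter sequences were looked at first, because A20 and its partners Tnip1 and Tnip3 share a feature there. RefSeq promoters (GRCm38.p6, from 250 bases before the annotated start to 50 after it) were matched for all 9 genes, with 11 starts among them. The κB consensus, the binding letters of NF-κB, was searched on both strands. It was found in 3 of the 9 genes, Tnfaip3, Tnip1 and Tnip3, though not at the other annotated start of Tnfaip3. It stood in 8.46% of the 32851 promoters of the same length, a share of starts and not of genes. The 130 bases before the start are shown for these 3 genes, with the match in capitals.

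Tnfaip3, chr10:19015411-19015540, minus strand: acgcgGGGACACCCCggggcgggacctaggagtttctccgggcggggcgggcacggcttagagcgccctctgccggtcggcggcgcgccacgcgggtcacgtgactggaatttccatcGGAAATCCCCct
Tnip1, chr11:54962941-54963070, minus strand: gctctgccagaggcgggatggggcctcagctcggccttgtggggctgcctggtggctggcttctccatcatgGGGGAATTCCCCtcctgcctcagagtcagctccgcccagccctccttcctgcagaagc
Tnip3, chr6:65590268-65590397, plus strand: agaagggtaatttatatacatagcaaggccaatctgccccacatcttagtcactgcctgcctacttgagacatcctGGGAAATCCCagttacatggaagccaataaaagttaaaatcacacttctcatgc

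Counting back from the start, Tnfaip3 held matches at -125 to -116 and at -12 to -3, Tnip1 held 3 overlapping matches between -58 and -47, and Tnip3 held 1 match at -54 to -45. The starts used for Tnip3 and Zfp36 lie inside the spans of these genes in the table, as does the inner annotated start of Tnfaip3 and of Irak3. The first Tnfaip3 match, one of the Tnip1 matches and the Tnip3 match read as the consensus on both strands. The letters TGANTCA, the AP-1 word, stood in the promoters of Tnfaip3, Zfp36l1 and Rc3h1 and in 7.81% of all promoters. The forkhead words TGTTTAC and TGTTTGC, present in 3.65% and 5.07% of all promoters, were in none of the 11 windows. The windows of Zc3h12a, Zfp36, N4bp1 and Irak3 held none of the 4 motifs. These are matches of letters and not shown sites of binding.

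At the other end of the transcript, TATTTAT, the core of the AU-rich element that TTP proteins are known to bind, was counted after the stop codon in the longest coding transcript (GENCODE vM21). It occurred 3 times in Zfp36, 3 times in Zfp36l1, 2 times in Rc3h1 and once in Tnip3, and it was not found in Zc3h12a, Tnip1, N4bp1 or Irak3. The TTP genes are shown because their own transcripts carry the letters to which TTP binds. One site of each is given in 30 bases with the core in capitals, in GRCm38.

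Zfp36, chr7:28376950-28376979, minus strand: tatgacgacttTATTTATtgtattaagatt
Zfp36l1, chr12:80108166-80108195, minus strand: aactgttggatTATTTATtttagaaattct

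Of 13722 tested genes with a matched transcript, 29.5% held at least 1 such core.

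Taking the 9 genes by level per length in the pcDNA group, Zfp36l1 was the most abundant at 74.5 ± 1.29 FPKM (SD, n = 3), at the 96.7th percentile of tested genes. It was followed by Tnip1 at 26.6 ± 0.597, Zc3h12a at 21.4 ± 0.949, N4bp1 at 13.3 ± 0.113, Zfp36 at 10.5 ± 0.566, Tnfaip3 at 9.18 ± 0.396 and Rc3h1 at 5.11 ± 0.0914 FPKM (SD, n = 3 each). Irak3, at 1.44 ± 0.25 FPKM, and Tnip3, at 1.18 ± 0.126 FPKM, were the lowest, and their pcDNA libraries overlapped, so the order of these last genes is not resolved. No other neighbours in this order overlapped. In the Hnf3a group the order of Zc3h12a and N4bp1 was the other way round. Zc3h12a, at 11.8 ± 0.608 FPKM, stood below N4bp1, at 12.6 ± 0.072 FPKM (SD, n = 3 each), with no overlap of libraries. Irak3, at 0.594 ± 0.107 FPKM, stood below Tnip3, at 0.762 ± 0.0568 FPKM (SD, n = 3 each), again with no overlap, but since the pcDNA order of this pair was not resolved no change of order is stated for it.

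**Figure D1:**
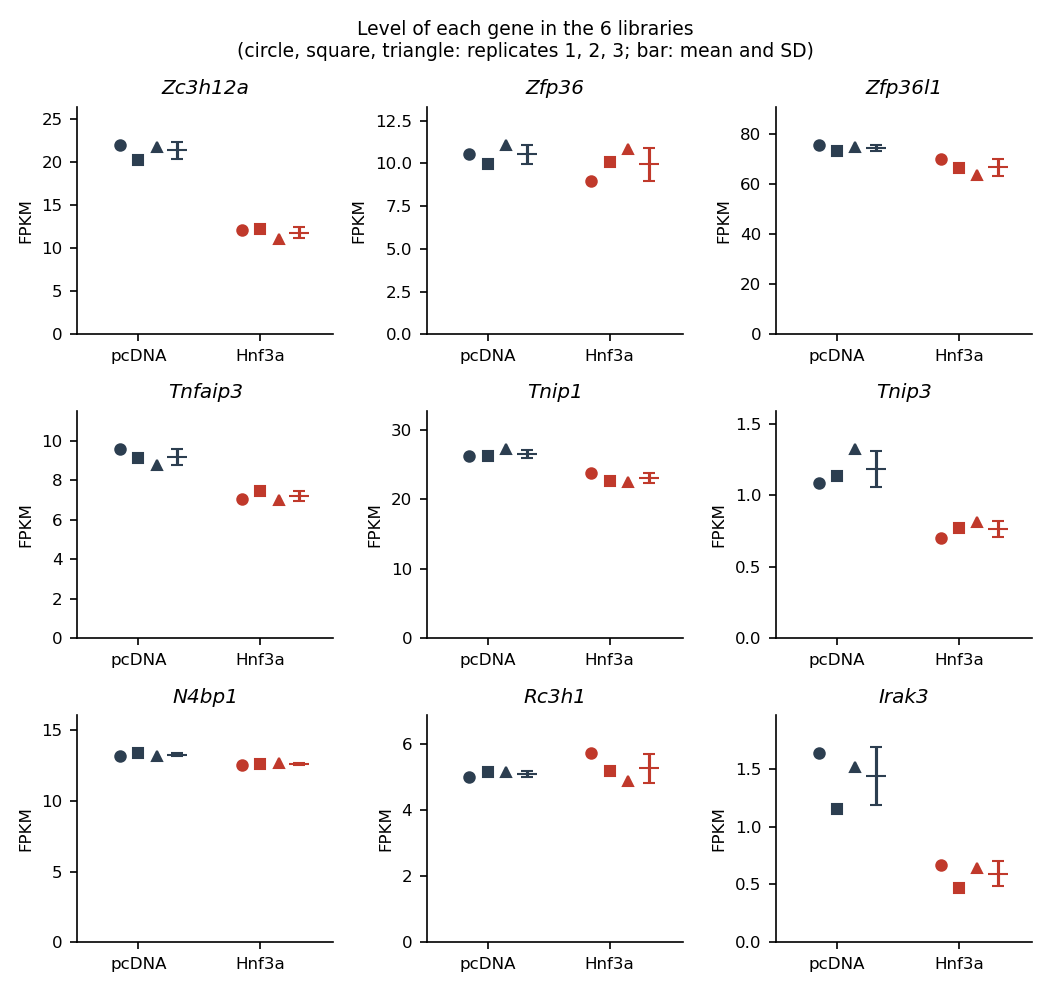
Level in FPKM (vertical axes, each from 0) of the 9 genes in the 3 pcDNA (dark) and 3 Hnf3a (red) libraries, with the mean and SD beside the points. The groups were apart for 7 genes, most widely for Zc3h12a and Irak3, and overlapped for Zfp36 and Rc3h1.

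The Hnf3a libraries lay below all pcDNA libraries for 7 of the 9 regulators and overlapped with them for Zfp36 and Rc3h1. By sign alone 8 of the 9 differences were below 0, as were 49.8% of those of all tested genes. Differences are given as log2FC, the log2 of the ratio Hnf3a over pcDNA from the edgeR fit, ± its standard error. The median of the 9 was -0.22, against 0.00085 over all tested genes. By edgeR's quasi-likelihood fit over all genes, 6 of the 9 were among the genes with an adjusted p under 0.05, all of them lower, where 3.17% of all tested genes were called in either direction, 2.13% lower and 1.04% higher. No regulator was called higher, and none had an unadjusted p under 0.05 in that direction in edgeR. The DESeq2 and limma fits also called none higher. The libraries of the groups did not overlap for 7 of the 9, against 18.9% of all tested genes. Nothing is read from these counts, since the genes were chosen with this contrast known. In these bulk samples, fewer cells expressing a gene and less RNA per cell cannot be told apart.

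Among the genes that destroy mRNA, Zc3h12a, the gene of Regnase-1, differed most. Its 6 exons span bases 125118423 to 125127840 of chromosome 4 in GRCm38 (minus strand), and no annotated gene overlaps it. Its level was 12.2, 12.2 and 11.1 FPKM in Hnf3a replicates 1, 2 and 3 and 22.0, 20.3 and 21.8 FPKM in pcDNA replicates 1, 2 and 3. Every Hnf3a library was thus far below every pcDNA library, and the spread within each group was small, with a coefficient of variation of 5.16% in the Hnf3a group and 4.50% in the pcDNA group. Its log2FC was -0.86 ± 0.051, so the gene was 44.9% lower. It was -0.81 in Hnf3a replicate 1 alone, the library in which fibroblast and macrophage markers were low.

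Zfp36, the gene of TTP, had 8.95, 10.1 and 10.9 FPKM in Hnf3a replicates 1, 2 and 3 and 10.6, 9.95 and 11.1 FPKM in pcDNA replicates 1, 2 and 3. The groups overlapped, and Hnf3a replicate 1 was the lowest of the 6 libraries. Its log2FC was -0.089 ± 0.067. It was -0.24 for Hnf3a replicate 1 alone and -0.022 without that library, and the part of the marker genes of other cell types in this was not tested. Gm44710, an antisense gene that overlaps Zfp36 (chromosome 7, 28376784 to 28380253, minus strand), had at most 14 counts.

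Zfp36l1, the relative of TTP on chromosome 12 (80107754 to 80113013, minus strand), had 70.1, 66.5 and 63.6 FPKM in Hnf3a replicates 1, 2 and 3 and 75.7, 73.1 and 74.6 FPKM in pcDNA replicates 1, 2 and 3. The groups did not overlap, although Hnf3a replicate 1 came within reach of the pcDNA libraries. The difference was small, with a log2FC of -0.17 ± 0.038, or 10.9% lower. In Hnf3a replicate 1 alone it was -0.088. Of the 15 alternative fits, 7 called the gene and 8 did not.

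Rc3h1, the gene of roquin-1, had 5.74, 5.18 and 4.88 FPKM in Hnf3a replicates 1, 2 and 3 and 5.01, 5.16 and 5.17 FPKM in pcDNA replicates 1, 2 and 3. Hnf3a libraries lay on both sides of the pcDNA libraries, and Hnf3a replicate 1 was the highest of all. Its log2FC was 0.034 ± 0.054, and without Hnf3a replicate 1 it was -0.036. The 20 exons of Rc3h1 span bases 160906418 to 160974978 of chromosome 1 (plus strand). Short gene models of the same strand overlap it there, and the counts could be split between them. Of these models Gm37052 had at most 3 counts and Gm37653 at most 4, beside 3868 to 4766 counts per library for Rc3h1.

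N4bp1 had the tightest libraries of the 9 genes. Its level was 12.5, 12.6 and 12.7 FPKM in Hnf3a replicates 1, 2 and 3 and 13.2, 13.4 and 13.2 FPKM in pcDNA replicates 1, 2 and 3. The groups did not overlap, but the log2FC was only -0.082 ± 0.030, and the fit over all genes did not call it. The gene spans bases 86808160 to 86885258 of chromosome 8 (minus strand), with no overlapping gene.

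The 3 regulators of ubiquitin signalling were each lower, in unequal degree, which describes genes chosen with this contrast known. Tnfaip3, the gene of A20 on chromosome 10, had 7.08, 7.47 and 7.02 FPKM in Hnf3a replicates 1, 2 and 3 and 9.59, 9.15 and 8.80 FPKM in pcDNA replicates 1, 2 and 3. Every Hnf3a library was below every pcDNA library. Its log2FC was -0.36 ± 0.044, or 22.1% lower, and it stayed between -0.39 and -0.31 in the 15 alternative fits.

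Tnip1, on chromosome 11 (54910785 to 54962917, minus strand), had 23.8, 22.7 and 22.5 FPKM in Hnf3a replicates 1, 2 and 3 and 26.3, 26.2 and 27.3 FPKM in pcDNA replicates 1, 2 and 3. The groups did not overlap. Its log2FC was -0.22 ± 0.037, or 13.9% lower, and the gene was not called without Hnf3a replicate 2 or for Hnf3a replicate 1 alone (log2FC -0.16).

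Tnip3, on chromosome 6, was among the least abundant genes of the 9, with 0.701, 0.771 and 0.814 FPKM in Hnf3a replicates 1, 2 and 3 and 1.08, 1.13 and 1.32 FPKM in pcDNA replicates 1, 2 and 3. Its estimated counts, 560 to 1056 per library, were well above the floor, and no Hnf3a library reached a pcDNA library. Its log2FC was -0.64 ± 0.098, or 35.7% lower, and it was -0.75 in Hnf3a replicate 1 alone. Both limma fits on FPKM did not call the gene, with -0.57 on the log2(FPKM + 0.1) scale and -0.31 on the log2(FPKM + 1) scale.

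Irak3, the gene of IRAK-M, had the largest relative difference of the 9 genes. Its level was 0.669, 0.472 and 0.642 FPKM in Hnf3a replicates 1, 2 and 3 and 1.64, 1.15 and 1.52 FPKM in pcDNA replicates 1, 2 and 3, from estimated counts of 139 to 179 and of 312 to 408. The groups were apart, but the spread within them was also the widest of the 9 genes, with a coefficient of variation of 17.9% and 17.6%. At about 4 counts per fragment these counts stand for few fragments, and the part of counting error in this spread was not tested. The log2FC of Irak3 was -1.28 ± 0.18, or 58.7% lower. It ran from -1.41 to -1.13 when single libraries were left out, and in Hnf3a replicate 1 alone it was -1.10 and no longer called. Irak3 (chromosome 10, 120141648 to 120202130, minus strand) overlaps Tmbim4 on the other strand. The library kit marks strand, but whether the counting used it is not given in the sources used here, so the counts of Irak3 are uncertain, as are those of Zfp36, Zfp36l1 and Tnip1, which overlap non-coding or pseudogene models on the other strand. Tmbim4 had 1627 to 1908 counts per library, more than Irak3 in every library, and a log2FC of -0.033 ± 0.059. Gm12230, the pseudogene that overlaps Tnip1, had 2 to 16 counts.

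**Figure D2:**
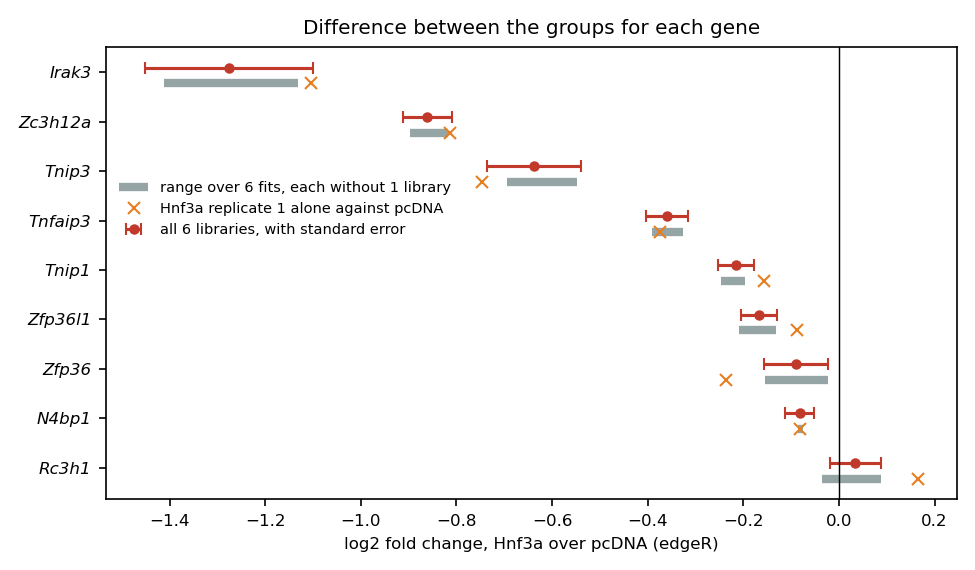
Log2FC of the 9 genes, Hnf3a over pcDNA (horizontal axis), from all 6 libraries with the standard error (red), as the range over 6 fits that each left out 1 library (grey) and for Hnf3a replicate 1 alone against the pcDNA group (orange crosses). Irak3, Zc3h12a, Tnip3 and Tnfaip3 stay well below 0 in each, and Rc3h1 lies on both sides of 0.

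To see which genes had a profile like those of Regnase-1 and A20, log2 CPM was centred on the mean of each gene and compared over the 6 libraries by the root mean square difference. This distance includes the group difference with which these regulators were chosen. A like log2FC among the closest genes therefore follows from the measure and is no separate result. The 5 tested genes closest to Zc3h12a were Pglyrp3, Krt16, Lcn2, Tlr2 and Ccrl2, at 0.0618 to 0.0909 from it, where the median tested gene was at 0.455. Their log2FC values lay between -0.87 (Ccrl2) and -0.74 (Tlr2). The 5 closest to Tnfaip3 were Gbp6, Birc3, Smpdl3b, Ikbke and Apobr, at 0.016 to 0.0322, where the median tested gene was at 0.222. Their log2FC values lay between -0.41 (Smpdl3b) and -0.34 (Birc3). Of the other regulators, Tnip3 was the nearest to Zc3h12a, at 0.174, and Tnip1 to Tnfaip3, at 0.0991. The closest of all pairs was Zfp36l1 and Tnip1, at 0.0373.

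The wider machinery was then examined with lists written for their known roles, with earlier results of these data already known. Calls and p-values of these lists are therefore a description and no independent test. Relatives of Regnase-1 and roquin, with the protease Malt1 that cleaves Regnase-1 and other partners, gave 8 tested genes, and their median log2FC was -0.010, and edgeR called 0 of them, 2 of them having an unadjusted p under 0.05. The DESeq2 and limma fits called 0 as well. Other proteins that bind AU-rich elements gave 9 tested genes with a median of 0.014 and 0 calls in edgeR, DESeq2 and limma, with 1 at an unadjusted edgeR p under 0.05. Relatives of the regulators are named here for that, outside the rule for naming genes, and none was called. The log2FC was -0.35 ± 0.29 for Zc3h12b, at 0.114 ± 0.00978 FPKM in the pcDNA group (SD, n = 3), -0.15 ± 0.068 for Zc3h12c, -0.095 ± 0.031 for Zfp36l2, 0.080 ± 0.044 for Rc3h2 and -0.091 ± 0.068 for Tnip2. For the kinases Irak1, Irak2 and Irak4 it was 0.073 ± 0.045, -0.069 ± 0.13 and 0.027 ± 0.078.

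The enzymes that shorten poly(A) tails and remove caps, through which roquin and TTP act, gave 27 tested genes, and their median log2FC was 0.014. Of these 1 was called, or 3.7% beside 3.17% of all tested genes, a share near the background. It was Tob2, an adaptor of the deadenylase. It rose from 5.31 ± 0.109 to 6.27 ± 0.387 FPKM (SD, n = 3 each), with a log2FC of 0.23 ± 0.054 and an edgeR adjusted p of 0.0312. Its lowest Hnf3a library was at 6.04 FPKM and its highest pcDNA library at 5.40 FPKM. The call was lost in 7 of the 15 alternative fits, among them 5 that each left out 1 library.

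Of the 16 genes of partners of A20 and other ubiquitin enzymes, all tested, 12 were below 0, beside 49.8% of all tested genes, with a median of -0.038. One was called, lower, which is 6.25% beside 2.13% of all tested genes called lower, and no statement about the list rests on a single call. This was Birc3, which encodes the ubiquitin ligase cIAP2 and is itself a target of NF-κB. It fell from 6.74 ± 0.162 to 5.36 ± 0.156 FPKM (SD, n = 3 each), a log2FC of -0.34 ± 0.050 and an edgeR adjusted p of 0.00153. Birc3 was called in all 15 alternative fits.

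A list of IRAK kinases, the adaptor Myd88 and genes counted as brakes of IL-1 and Toll-like receptor signalling gave 12 tested genes. Of these, 2 were called, in opposite directions, or 16.7% beside 3.17% of all tested genes. No statement about the list rests on these 2 calls. Il1rl1, the receptor of IL-33, rose from 2.06 ± 0.25 to 3.25 ± 0.307 FPKM (SD, n = 3 each), with a log2FC of 0.65 ± 0.094 and an edgeR adjusted p of 0.00148. Il1rn, which encodes the antagonist of the IL-1 receptor, fell from 5.29 ± 0.124 to 4.06 ± 0.438 FPKM (SD, n = 3 each), with a log2FC of -0.39 ± 0.070 and an edgeR adjusted p of 0.0068. Il1rl1 was called in all 15 alternative fits, whereas Il1rn was lost in the limma fits and without pcDNA replicate 1.

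The messenger RNAs that are known targets of Regnase-1, roquin or TTP were the list in which most genes moved. Of 21 tested genes 8 were called, all lower, which is 38.1% of the list beside the 2.13% of all tested genes called lower. The list median was -0.24 and 18 of the 21 genes were below 0. Several of these genes were already known to be lower in these libraries when the list was written, so the count is not independent evidence of its direction. By edgeR adjusted p the first were Nfkbiz, Cxcl2, Ccl2 and Fos. Nfkbiz, an atypical IκB protein and a target of Regnase-1, fell from 31.4 ± 0.104 to 22.5 ± 0.101 FPKM (SD, n = 3 each), with a log2FC of -0.49 ± 0.031 and an edgeR adjusted p of 7.64e-07. The 3 Hnf3a libraries were within 22.4 to 22.6 FPKM and the 3 pcDNA libraries within 31.3 to 31.5 FPKM. Cxcl2, a chemokine for neutrophils, fell from 67.6 ± 4.03 to 41.7 ± 1.40 FPKM (SD, n = 3 each), and its log2FC was -0.70 ± 0.045 (edgeR adjusted p 8.05e-07). Fos, an AP-1 subunit, fell from 17.4 ± 0.916 to 11.7 ± 0.227 FPKM (SD, n = 3 each), and its log2FC was -0.59 ± 0.052 (edgeR adjusted p 1.69e-05). Ccl2 had the same log2FC of -0.59. These 4 genes were called in all 15 alternative fits.

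**Figure D3:**
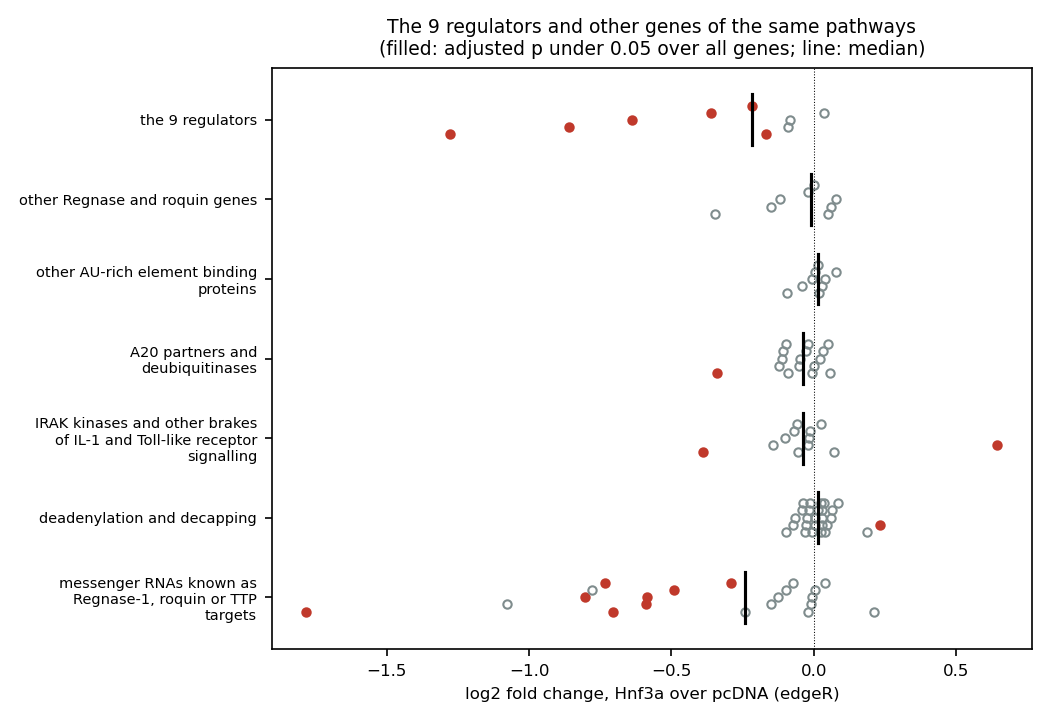
Log2FC, Hnf3a over pcDNA (horizontal axis), of the 9 regulators and of the tested genes in 6 related lists. Filled points passed the adjusted threshold of 0.05 and the line is the list median. The lower genes are mostly in the top row, whose genes were chosen with this contrast known, and in the bottom row of known targets.

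Within the list of targets the AU-rich core was present in 6 of the 8 targets that were lower and in 10 of the 13 that were not called. The median number of cores was 3 in the former and 2 in the latter, and the difference was not tested. Over all tested genes with a matched transcript, 2.45% of the 9675 genes without a core were called lower, 2.81% of the 2597 with 1, 3.54% of the 904 with 2 and 4.03% of the 546 with 3 or more. The shares called higher were 1.24%, 1.19%, 2.1% and 1.47% in the same order. The median log2FC was between 0.00098 and 0.0040 in these classes. Genes with more cores also had longer stretches after the stop codon, with a median of 791 bases for 0 cores and 3292 for 3 or more, and the part of this length in the shares was not tested.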

How the data were processed

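RNA sequencing of 6 TKPTS libraries was analysed from 1 table. The authors deposited an estimated count and an FPKM value per gene and library. The submitters' processing notes name cutadapt 1.9, UMI-tools, HISAT2 2.0.4, StringTie 1.3.4d, DESeq2 and edgeR, and the build mm10, with no role for each. The annotation and the use of strand are not given in the sources used here. The counts were whole numbers, with more genes at exactly 4 than at 3 or 5 counts in every library, so 1 fragment was taken as worth about 4 counts. Estimated counts carry the error of the estimate as well.

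Genes were filtered with filterByExpr, scaled by TMM and tested two-sided by the quasi-likelihood F test of edgeR 4.0.16 (robust dispersions, R 4.3.3). Benjamini-Hochberg adjustment ran over all tested genes, and 0.05 was the threshold. A standard error was taken as |log2FC| over the root of F. A permutation test of 3 libraries against 3 cannot go below an exact p of 0.1. The labels do not say whether the replicates are separate cultures, so p-values measure the spread between these samples. Alternatives used DESeq2 1.42.0, limma 3.58.1 on log2(FPKM + 0.1) or log2(FPKM + 1), other scalings and filters, the replicate number as a block, and fewer libraries. Fold changes on the log2(FPKM + pseudocount) scale understate those of low genes. Before use, the scripts were tested on simulated data.

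The 9 genes and all lists were chosen with earlier results of these data known. The genes named were the 9 regulators, at most 4 higher and 4 lower genes of each list with the smallest p among called genes whose groups did not overlap, and the 5 genes closest in profile to Zc3h12a and to Tnfaip3. Endothelial markers, also listed, summed to 0.478 to 0.521 FPKM in the Hnf3a and 0.758 to 0.987 FPKM in the pcDNA libraries. Most of this sum was Cdh5. Of the 5 markers, 4 or 5 were above the floor in the Hnf3a libraries and 2 or 3 in the pcDNA libraries. Tek had 11 to 16 counts in the Hnf3a libraries and 0 in the pcDNA libraries. Proteins were not compared. The AU-rich core of 1 of the 9 genes is not reported here. Coordinates are those of the table where it has the same ones as GENCODE vM21 (7 of the 9 genes).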

Additional observations from a re-analysis of the deposited data

How the results depend on the processing

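None of the 255 fold changes of single genes under the 15 alternatives turned past the threshold in the other direction, and 232 kept their side of it, among them 122 of the 135 of the 9 regulators. Of these regulators 6 were called, and 4 to 6 when 1 library was left out (4 without Hnf3a replicate 2), but 3, all lower, for Hnf3a replicate 1 alone against the pcDNA group, a fit that assumes that the lone library varies like the others. Both limma fits called 4 of the 9, without Zfp36l1 and Tnip3. Zc3h12a and Tnfaip3 were called in all 15 alternatives. Over all genes 565 differed, 186 higher and 379 lower. The counts were 265 (71 higher, 194 lower) in limma on log2(FPKM + 0.1), 248 (63 and 185) on log2(FPKM + 1) and 322 (90 and 232) for Hnf3a replicate 1 alone, and DESeq2 called 327 higher. With 1 library left out, 263 to 643 genes differed (64 to 253 higher, 199 to 390 lower). The list of IRAK kinases, Myd88 and brakes kept 1 call in both limma fits and 1 to 2 without 1 library. The deadenylation list kept 0 in both limma fits and 0 to 1 without 1 library. The list of known targets, with 8 calls in the main fit, had 7 in both limma fits and 8 to 9 without 1 library. Leaving out libraries reduces the samples fitted, and for the remaining shifts the cause was not tested. The replicate numbers are not stated to pair the libraries. Deviations from the group means were little correlated between libraries of the same number (-0.051, -0.0029 and 0.011), which cannot show whether they were handled in pairs. With the replicate block 463 genes differed, and 6 of the 9 regulators were called.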
